A study of Homo sapiens with 2 samples.

Results

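Notch signalling genes were compared between control cells and cells that had received Cas9 and a guide RNA targeting ARID3B. The group held 39 named genes of the pathway, from ligands and receptors to the HES and HEY target genes and was given as a list of gene names. The list was drawn up with earlier results of these data known. All 39 had a probe set annotated to that gene alone, out of 19775 genes on the arrays. Where a gene had several probe sets, the one with the highest mean over the arrays, called its brightest probe set, stands for it.

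The cells were HCT15, an established human colorectal adenocarcinoma line. Both cultures were kept in serum-containing RPMI medium, and total RNA of each was measured on 1 Affymetrix array. The edited culture is labelled an ARID3B knockout, and the other is labelled control, with no further word on what the control cells received. The sources used here do not say where the guide cuts or whether the edited culture was 1 clone. ARID3B is a DNA-binding protein with an AT-rich interaction domain. Its transcript was at 6.09 (log2) on the array labelled knockout and at 5.12 on the control array, a difference of 0.97 in its single probe set. The transcript was therefore not lower on the array labelled knockout. A transcript level does not show whether an edit disrupted the protein, so this value cannot settle the label. That array is called the knockout-labelled array, and all directions below depend on the deposited labels.

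Notch receptors are single-pass proteins that are cut when a ligand on a neighbouring cell binds them. An ADAM protease cuts outside the membrane, gamma-secretase then cuts within it, and the released intracellular domain joins RBPJ and a Mastermind protein on DNA to switch on HES and HEY genes. These targets encode basic helix-loop-helix repressors. In the intestinal crypt, Notch signalling through HES1 keeps progenitors from the secretory fate by repressing ATOH1.

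Promoters were searched for the core sequence that RBPJ binds, the DNA element of the pathway. HES1 and HES4 had higher values on the knockout-labelled array and HES2 a lower one, relative to the other genes. The window ran from 250 bases before to 50 bases after each start site, in RefSeq sequence of GRCh38.p14, and 32 of the 39 genes had an entry. The 6-letter core TGGGAA, searched on both strands, lay in 24.3% of all 27305 promoters of this length and in 9 of the 32, of which 5 were among the 8 target genes with an entry. The longer GTGGGAA, which contains the core, lay in 6.28% of all promoters, in 5 of those 8 target genes and in 1 of the 24 other genes. HES1, HES4, HES5, HEY2 and HEYL were the target genes with a match. HES2, HES6 and NRARP had none in this window.

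HES1 and HES4 shared a paired arrangement, which was searched for after the sequences had been seen. In both, GTGNGAA was followed after 16 bases by its reverse complement TTCNCAC. The pattern reads alike on both strands, and it contains the core counted above where N is G in GTGNGAA or C in TTCNCAC. In HES1 and HES4 the first element, GTGGGAA, holds the core, and the second, TTCACAC, does not. The pair lay in 3 of 27305 promoters (0.011%), which were those of HES1, HES4 and ITIH4, a plasma protein gene. With a gap of 15 bases it lay in 1 promoter and with 17 in 0, none of them a gene of this group. The pattern was set after the sequences had been seen, so the matches of HES1 and HES4 at 16 bases were known beforehand. Neither the share nor the other gaps test whether the pair is particular to the group. A pair of RBPJ sites facing each other is known from the HES1 promoter. The matches are a description of letters and not evidence of binding in these cells, and ITIH4 differed by -0.24 (5.27 on the knockout-labelled array and 5.51 on the control array).

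Among the HES genes that belong to the group, the promoters of those that differed most are shown, with the paired elements in capitals. The HES1 window is chr3:194135898-194136197 on the plus strand, with GTGGGAA beginning 85 bases and TTCACAC 62 bases before the start site. A second TGGGAA, left in lower case, begins 70 bases before it. The HES4 window is chr1:1000048-1000347 on the minus strand, with the same elements beginning 77 and 54 bases before the start site. The HES2 window, chr1:6419870-6420169 on the minus strand, holds neither the pair nor the core. The genes shown were picked by their differences, so whether the core goes with a direction was not tested. HES5 and HEY2, with 2 GTGGGAA matches each, were too dim on both arrays to be compared. HEYL, with 1 match, had probe sets of opposite sign. HES6 and NRARP, with no match, differed by -0.08 and -0.17.
HES1: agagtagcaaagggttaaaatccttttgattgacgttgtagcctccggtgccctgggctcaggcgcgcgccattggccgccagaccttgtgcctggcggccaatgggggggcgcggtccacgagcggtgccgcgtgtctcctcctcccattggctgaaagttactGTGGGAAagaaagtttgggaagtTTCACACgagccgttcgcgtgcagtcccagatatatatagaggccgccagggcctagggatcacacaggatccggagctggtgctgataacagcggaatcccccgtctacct
HES4: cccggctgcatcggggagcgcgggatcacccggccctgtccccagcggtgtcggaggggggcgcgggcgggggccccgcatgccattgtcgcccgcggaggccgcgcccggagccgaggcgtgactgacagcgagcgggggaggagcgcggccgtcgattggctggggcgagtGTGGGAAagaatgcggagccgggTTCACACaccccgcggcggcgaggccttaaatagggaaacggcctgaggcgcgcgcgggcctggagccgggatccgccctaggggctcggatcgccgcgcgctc
HES2: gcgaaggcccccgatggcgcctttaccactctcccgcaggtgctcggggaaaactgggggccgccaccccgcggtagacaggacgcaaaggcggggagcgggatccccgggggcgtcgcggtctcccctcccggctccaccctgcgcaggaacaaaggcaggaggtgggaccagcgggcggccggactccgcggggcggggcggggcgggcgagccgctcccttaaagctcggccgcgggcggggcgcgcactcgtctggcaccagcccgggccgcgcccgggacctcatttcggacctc

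Values are RMA-normalised log2 intensities, and a difference is the knockout-labelled minus the control value. Genes entered the comparison if at least 1 of their values reached the floor, set at 4.59, which is the median over non-control probe sets. Of the 39 genes 35 were compared, and DTX1, MAML3, HES5 and HEY2 were under the floor on both arrays in all their probe sets. With 1 array per group there was no test, no standard deviation and no replicate check. The scaled median absolute deviation of differences among genes of similar mean, 0.255 to 0.437 over 10 bins of mean expression, is given as the spread of similar genes. Precision is limited by there being 2 arrays.

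The pathway as a whole lay close to the other genes of the array. None of the 35 genes was at least 2-fold higher, where 1.05% of all 12841 genes compared were, and 2 (HES2 and MAML2) had a difference of at least 2-fold lower, against 3.79% of all genes. The MAML2 value on the knockout-labelled array is under the floor, so its fold is not measured. With values under the floor raised to it, only HES2 of the 35 was at least 2-fold lower, beside 407 of all 12841 genes. At 1.5-fold, 4 were higher (HES1, HES4, DTX2 and, with a control value under the floor, NUMB), against 5.83% of all genes. At the same threshold 3 were lower (HES2, PSEN2 and, with its knockout-labelled value under the floor, MAML2), against 10.5%. Differences beyond the spread of similar genes were found for 11 of 35 genes (31.4%), against 34.8% of all genes. Of these, 6 were higher (16.4% of all genes) and 5 lower (18.4%). NUMB and HEY1 among the higher ones passed the floor only on the knockout-labelled array, and MAML2 among the lower ones only on the control array. The median difference was 0.08, with 18 genes above 0, 16 below and 1 at 0, beside a median of 0.04 for all genes, of which 52.9% were above 0 and 45.1% below. The scaled median absolute deviation of the differences was 0.319 in the group and 0.354 over all genes.

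**Figure D1:**
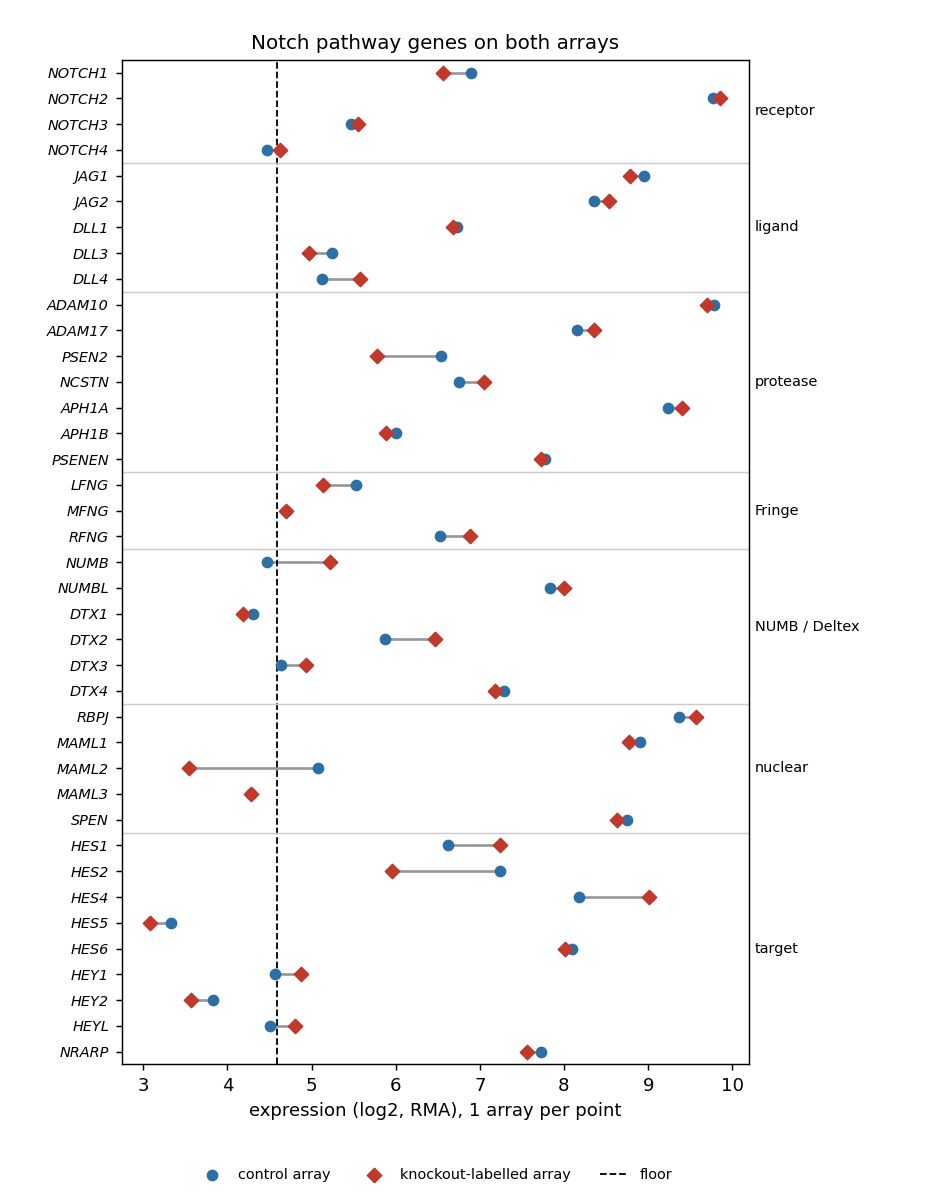
Expression (log2, RMA) of the 39 Notch pathway genes on the control array (circles) and the knockout-labelled array (diamonds), 1 array per point, by role, with the floor of 4.59 dashed. Each line joins the values of 1 gene in its brightest probe set, and the longest lines are those of MAML2 (5.08 on the control and 3.54 on the knockout-labelled array) and HES2 (7.23 and 5.95); levels of different genes are not comparable.

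The scale of all differences is relative to the other genes. Poly-A spike-ins are bacterial transcripts normally added before labelling, and their 24 probe sets were lower on the knockout-labelled array by a mean difference of -1.19. Scaled on them, every difference moves up by that amount, all genes alike, the median of all genes becomes 1.22 and that of the group 1.27. On that scale 33 of the 35 genes were above 0, HES2 was at -0.09 and MAML2 at -0.35. The sign of MAML2 on that scale is not established, since its knockout-labelled value is under the floor. That of HES2 is not established either. Its -0.09 is within the spread of similar genes, 0.395, and its other probe sets (-0.67 and -0.55 before scaling) turn above 0. Differences given as lower for any of the other 33 genes are lower relative to the array as a whole and turn above 0 on the spike-in scale.

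The target genes had the widest range of the 7 roles. Of 9, 7 were compared, with differences from -1.28 to 0.84 and a median of 0.30. HES4, a repressor closely related to HES1, stood at 9.01 on the knockout-labelled array and 8.17 on the control, a 1.79-fold higher value (0.84). Its difference was larger than that of 98.0% of genes compared and than the spread of similar genes, 0.388. HES4 has 1 probe set, which is of the kind marked as able to match other sequences, so no second probe set checks it.

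HES1, the main Notch effector of the crypt, was at 7.23 on the knockout-labelled array and 6.62 on the control. The difference of 0.61 (1.53-fold higher) compares with a spread of 0.437 among similar genes. A second HES1 probe set, at 6.77 and 6.07, differed by 0.70. The third, at 2.43 and 2.33, was under the floor on both arrays. Both probe sets above the floor were thus higher on the knockout-labelled array, and both are marked as matching several transcripts.

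HES2, a less studied repressor of the same family, went the other way. It was at 5.95 on the knockout-labelled array and 7.23 on the control, 2.43-fold lower (-1.28), beyond the spread of similar genes, 0.395. Its second probe set stood at 3.95 and 4.62, a difference of -0.67 with the lower value under the floor. The third, under the floor on both arrays, stood at 2.99 and 3.54. All 3 probe sets were lower on the knockout-labelled array, and their mean difference was -0.83, short of 2-fold.

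HES6, which antagonises HES1, differed little, with 8.02 on the knockout-labelled array and 8.09 on the control (-0.08). NRARP, a target that feeds back to destabilise the Notch transcription complex, was at 7.56 and 7.72 (-0.17, with a spread of 0.412). Both lay within the spread of similar genes. The HEY genes were dim. HEY1 stood at 4.87 and 4.56 (0.31, spread 0.308) and its other probe set at 4.67 and 4.44, with the control value under the floor in both. The brightest HEYL probe set was at 4.80 and 4.50 (0.30), and its other one at 4.24 and 4.76 (-0.53), so the probe sets of HEYL had opposite signs. HEY2, at 3.57 and 3.83, and HES5, at 3.08 and 3.33, were under the floor on both arrays.

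**Figure D2:**
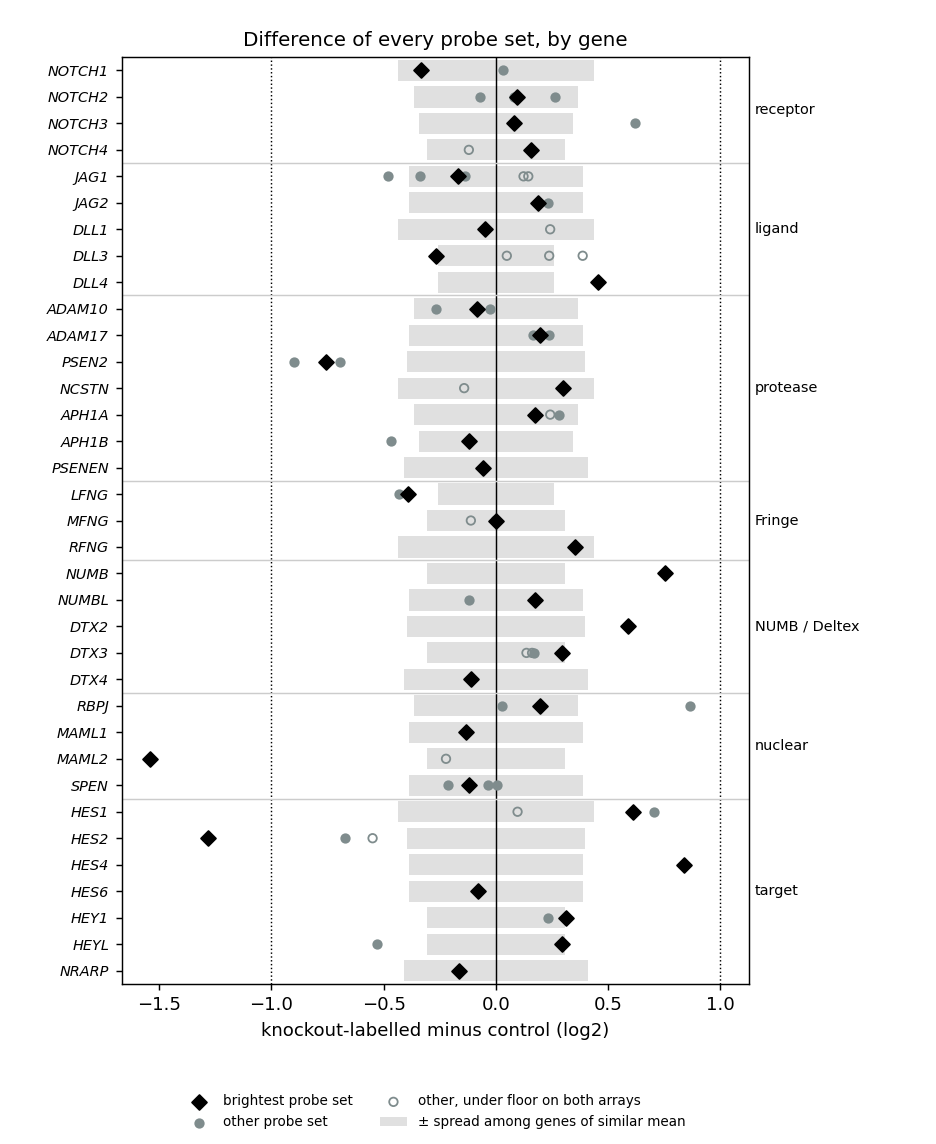
Difference (knockout-labelled minus control, log2) of every probe set of the 35 genes compared; black diamonds are the brightest probe sets, filled grey circles other probe sets, open circles probe sets under the floor on both arrays, and grey bars plus and minus the spread of similar genes. Both HES1 probe sets above the floor lie right of the bar, all 3 of HES2 and of PSEN2 lie left of it, and the probe sets of RBPJ run from 0.03 to 0.86; on the spike-in scale all points move right by 1.19, which turns PSEN2 above 0.

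The receptors showed no difference beyond the spread of similar genes in their brightest probe sets. NOTCH1, the main receptor of crypt progenitors together with NOTCH2, was at 6.56 on the knockout-labelled array and 6.89 on the control (-0.34, spread 0.437). Its other probe set was at 4.80 and 4.76 (0.03). NOTCH2 stood at 9.86 and 9.76 (0.09), and its 3 other probe sets differed by 0.08, 0.27 and -0.07. The brightest NOTCH2 probe set can match other sequences, and a further probe set that the annotation shares with the near-identical NOTCH2NL genes was not used.

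NOTCH3 was at 5.55 on the knockout-labelled array and 5.47 on the control (0.08). Its second probe set stood at 5.63 and 5.01, a difference of 0.62. The 2 probe sets therefore had the same sign and unequal size. NOTCH4, a receptor best known from endothelium, stood at 4.62 and 4.47 (0.15), at the floor, and its other probe set was under it.

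Among the 5 ligands, DLL4 was higher and DLL3 lower by more than the spread of similar genes, 0.257 for both. DLL4, a Delta ligand expressed in crypts and in endothelium, was at 5.58 on the knockout-labelled array and 5.12 on the control (0.46, or 1.37-fold higher) in its only probe set. DLL3, a ligand that acts inside the same cell as an inhibitor, was at 4.97 and 5.24 (-0.27). Its 3 other probe sets were under the floor on both arrays and differed by 0.24, 0.05 and 0.39. The sign of DLL3 thus rests on 1 dim probe set.

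JAG1, a Serrate-type ligand, was at 8.78 on the knockout-labelled array and 8.95 on the control (-0.17). Its 3 other probe sets above the floor were lower as well, by -0.14, -0.48 and -0.34. JAG2, of the same type, was at 8.54 and 8.35 (0.19), and its other probe set differed by 0.23. The Jagged ligands therefore had opposite signs, each in all its probe sets above the floor, with both brightest probe sets within the spread of 0.388. DLL1, the Delta ligand of secretory precursors, stood at 6.68 and 6.73 (-0.05).

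PSEN2 was the protease gene that differed most. PSEN2 encodes a presenilin, the catalytic subunit of gamma-secretase, and was at 5.78 on the knockout-labelled array and 6.54 on the control, 1.69-fold lower (-0.76, spread 0.395). The second probe set stood at 5.67 and 6.57 (-0.90). The third stood at 3.93 and 4.62 (-0.70), with the lower value under the floor. All 3 PSEN2 probe sets were lower, with a mean of -0.78.

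The other gamma-secretase subunits stayed within the spread of similar genes in their brightest probe sets. NCSTN, the substrate-binding nicastrin, was at 7.05 on the knockout-labelled array and 6.75 on the control (0.30, spread 0.437). APH1A, a scaffold subunit, was at 9.40 and 9.23 (0.17), and its second probe set differed by 0.28. The alternative scaffold APH1B was at 5.88 and 5.999 (-0.12), and its second probe set, the one not marked as matching several transcripts, differed by -0.47, beyond the spread of 0.343. PSENEN, which activates the presenilin, stood at 7.72 and 7.78 (-0.06). The ADAM proteases that make the outer cut also differed little. ADAM10 was at 9.70 and 9.78 (-0.09), with -0.02 and -0.27 in its other probe sets, and ADAM17 was at 8.36 and 8.16 (0.20), with 0.24 and 0.17.

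The Fringe glycosyltransferases, which extend sugars on the receptors and so change which ligand they answer to, did not share a direction. LFNG was at 5.14 on the knockout-labelled array and 5.53 on the control (-0.39, or 1.31-fold lower, spread 0.257), and its second probe set, at 4.28 and 4.72, differed by -0.43. RFNG was at 6.88 and 6.53 (0.35, spread 0.437) in 1 probe set. MFNG had the same value of 4.70 on both arrays. Identical values were found for 253 of the 12841 genes compared.

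NUMB and DTX2 were higher among the cytoplasmic regulators. NUMB, an endocytic adaptor that antagonises Notch, was at 5.22 on the knockout-labelled array and 4.47 on the control. The control value is under the floor, and raised to the floor it gives a 1.55-fold higher value. The floor is a median of probe sets and not a limit of detection, so this is not a firm bound. With 64 linear units added the difference was 0.23. NUMB was compared only through its knockout-labelled value. A further 3 NUMB probe sets share their annotation with another gene and were not used. DTX2, a Deltex ubiquitin ligase that binds the Notch intracellular domain, was at 6.46 and 5.87 (0.59, or 1.51-fold higher, spread 0.395) in 1 probe set. DTX3 stood at 4.94 and 4.64 (0.30), and all 5 of its probe sets were higher on the knockout-labelled array, 3 of them under the floor on both. NUMBL, the NUMB paralogue, was at 8.004 and 7.83 (0.18), with -0.12 in its other probe set, and DTX4 was at 7.18 and 7.29 (-0.11).

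MAML2, one of the Mastermind coactivators, was lower among the nuclear factors by an amount that was not measured. It was at 5.08 on the control array and at 3.54 on the knockout-labelled array. The latter is under the floor, and raised to the floor it gives a 1.40-fold lower value, which is not a firm bound either. With 64 linear units added the difference was -0.37. MAML2 was compared only through its control value, so that a low value on the other array had to give a difference. Its other probe set was under the floor on both arrays at 2.94 and 3.16. MAML1, another Mastermind gene, stood at 8.78 and 8.91 (-0.13), and the third, MAML3, had 4.28 on both arrays.

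RBPJ, the DNA-binding protein of the pathway, was at 9.56 on the knockout-labelled array and 9.37 on the control (0.20, spread 0.366). Its second probe set differed by 0.03 (9.03 and 9.003). The third, at 4.90 and at 4.03 under the floor, differed by 0.86. This dim probe set is the only RBPJ probe set not marked as matching several transcripts or genes, so which value holds for RBPJ is uncertain. SPEN, a corepressor that binds RBPJ, was at 8.63 and 8.75 (-0.12), with -0.22, 0.01 and -0.03 in its other probe sets.

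Probe sets of 1 gene gave a check within these arrays. In 14 of 19 genes (73.7%) with 2 or more probe sets above the floor these all had the same sign, which held for 61.2% of the 6297 such genes on the arrays. NOTCH1, NOTCH2, NUMBL, SPEN and HEYL were the 5 with both signs. Probe sets of a gene on the same pair of arrays share the RNA, so their likeness does not stand for replicates.

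**Figure D3:**
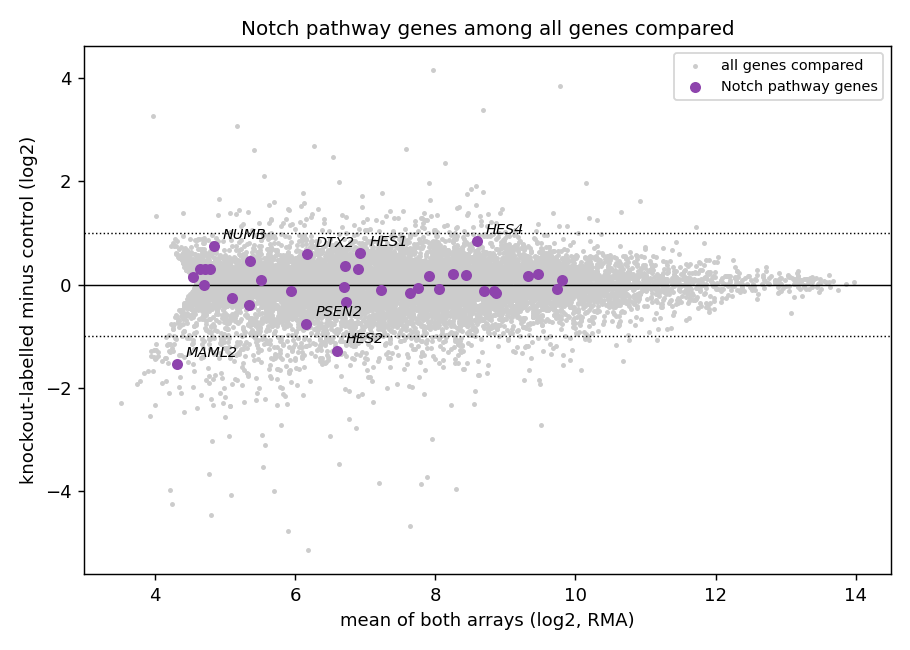
Difference (knockout-labelled minus control, log2) against the mean of both arrays (log2, RMA) for all 12841 genes compared (grey) and the 35 Notch pathway genes (purple), with dotted lines at 2-fold; genes with a difference of at least 0.5 in size are named. HES2 and MAML2 lie under the lower line, MAML2 through a value under the floor, and no Notch pathway gene lies over the upper one; scaling on the spike-ins would move every point up by 1.19.

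Other genes of the pathway, from a list that leaves out the 39, were also mixed in direction. Of 36 listed, 30 were compared, with a median of 0.03, 17 above 0 and 13 below. None was at least 2-fold higher (1.05% of all genes) and 2 were at least 2-fold lower (3.79%). These were DTX3L, a Deltex-type ligase that works with the interferon-induced PARP9, at 6.70 on the knockout-labelled array and 7.86 on the control (-1.15), and NEURL1B, a ligase that drives ligand endocytosis, at 5.91 and 6.97 (-1.06). Each rests on 1 probe set.

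KAT2B, an acetyltransferase coactivator, was at 5.77 on the knockout-labelled array and 6.70 on the control (-0.93). POGLUT1, which adds glucose to Notch receptors, was at 6.91 and 7.70 (-0.79), and its second probe set differed by -0.64. FBXW7, the ubiquitin ligase subunit that targets the Notch intracellular domain for degradation, was at 8.66 and 7.83 (0.83). Of its other 3 probe sets, 2 were higher (0.65 and 0.47) and a dim one was lower (-0.83). HES7, the repressor of the segmentation clock, was at 6.87 and 6.20 (0.67) in 1 probe set.

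Genes known to be repressed by HES1 or to mark secretory cells of the intestine were read beside HES1. Of 18 listed, 9 were compared, with a median of 0.22, 6 above 0 and 3 below. At least 2-fold higher were 2, CDKN1C and CDKN1B, where 1.05% of all genes were. This list too was drawn up with earlier results of these data known, so the count is a description and not a test of the list. CDKN1C, which encodes the cyclin-dependent kinase inhibitor p57, was at 7.67 on the knockout-labelled array and 6.39 on the control (1.28). All 4 CDKN1C probe sets above the floor were higher, by 1.12 to 1.28. CDKN1B, which encodes the related inhibitor p27, was at 10.44 and 9.31 (1.14) in 1 probe set. The 2 inhibitors and HES1 were thus all higher on the knockout-labelled array.

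The secretory regulators and markers differed by less than 1.5-fold in their brightest probe sets. ATOH1, the transcription factor that commits cells to the secretory fate, was at 4.99 on the knockout-labelled array and 4.66 on the control, a difference of 0.33 beside a spread of 0.308, with both values just above the floor. TFF3, a goblet cell peptide, was at 5.13 and 4.90 (0.23). AGR2, a disulfide isomerase of secretory cells, was at 6.11 and 6.42 (-0.31). SPDEF, a goblet cell transcription factor, was at 6.19 and 5.97 (0.22), and its 4 other probe sets differed by 0.08 to 0.30.

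Further genes reported to respond to Notch gave a median of -0.08 over 9 compared of 10, with 4 above 0, 5 below and none past 2-fold in either direction (4.84% of all genes). NFKB2, an NF-kB subunit, was at 6.58 on the knockout-labelled array and 5.86 on the control (0.72), with 0.50 in its second probe set. ID1, a helix-loop-helix inhibitor, was at 9.92 and 9.53 (0.39). The transcription factor MYC was at 10.31 and 10.64 (-0.33). SOX9, a crypt transcription factor, was at 9.86 and 9.60 (0.26), with -0.06 in its other probe set.

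**Figure D4:**
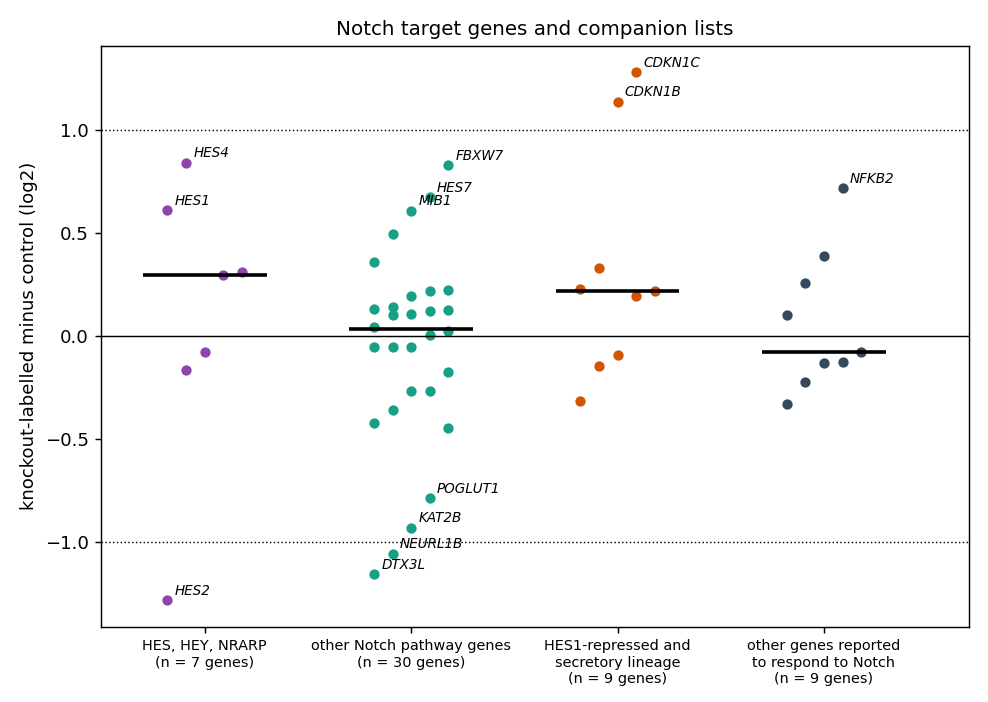
Difference (knockout-labelled minus control, log2) of the 7 HES, HEY and NRARP genes compared and of 3 companion lists, 1 point per gene, with the median of each list as a bar, dotted lines at 2-fold and genes of at least 0.6 in size named. CDKN1C (1.28) and CDKN1B (1.14) lie over the upper line, and HES2 (-1.28), DTX3L (-1.15) and NEURL1B (-1.06) under the lower one; scaled on the spike-ins every point would be 1.19 higher, which turns DTX3L and NEURL1B above 0.

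The label of the cells was checked against markers of colonic epithelium and of other cell types. Of 10 epithelial markers 9 were at or above the floor, among them EPCAM at 12.23 on the knockout-labelled array and 12.19 on the control, and LGALS4 was under it. Differences beyond the spread of similar genes ran in both directions. The adhesion protein CDH1 was at 10.66 on the knockout-labelled array and 11.11 on the control (-0.45), KRT19, a keratin, at 11.69 and 11.42 (0.27), and the intestinal transcription factor CDX2 at 6.91 and 6.27 (0.64). The log2 of the summed epithelial level was 14.08 on the knockout-labelled array and 14.05 on the control. Of 5 endothelial markers, set here beside DLL4 and NOTCH4, 3 (VWF, KDR and CDH5) were under the floor on both arrays, and the log2 of the summed level was 6.92 and 6.76. Of 7 fibroblast markers 2 were at or above the floor (7.78 and 7.59 summed), and of 4 blood markers with a probe set 3 were (7.41 and 7.30). The summed level of each of the 4 lists was higher on the knockout-labelled array by 0.03 to 0.19. The fibroblast sum rests largely on the brightest COL1A1 probe set, at 7.12 on the knockout-labelled array and 6.87 on the control. Only 1 of the 2 COL1A1 probe sets above the floor was higher, and the mean difference of all 5 was -0.70. The part of the 4 lists in the differences above was not tested.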

How the data were processed

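RNA of 2 HCT15 cultures was hybridised to Affymetrix arrays, 1 for each culture. Per the submitters' processing notes the authors used RMA (version not named), and the deposited table holds its log2 expression values. RMA corrects background, quantile-normalises and summarises the probes of a set, so differences in total RNA are lost and those of dim probe sets shrink.

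Of 54675 probe sets 62 were controls. Of the rest, 41091 had 1 gene symbol, 1801 had several and 11721 had none in the platform annotation. Only the first kind was used, giving 19775 genes, of which 12841 (64.9%) passed the floor. All 39 genes kept their symbol when looked up by Entrez identifier in RefSeq (GRCh38.p14). The members and lists were chosen with earlier results of these data known. Described in the text were all 39 genes, companion genes past 2-fold, and up to 4 others per list with the largest differences. Work was done in Python 3.11.15 with pandas 2.3.3 and statsmodels 0.14.6, and tested on simulated data. The alternatives were other floors, probe set choices, scalings, 64 linear units added to both arrays, and thresholds of 1.5-fold and 3-fold.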

Additional observations from a re-analysis of the deposited data

How the results depend on the processing

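No paired analysis was possible because each group holds 1 array and the labels give no replicate numbers, and no array could be left out. The count of genes at least 2-fold lower was 2, and became 1 with the higher floor (75th percentile, 21 genes compared) or with values under the floor raised to it. It became 0 with the mean of all probe sets, with 64 linear units added, at a 3-fold threshold or scaled on the spike-ins. The count of genes at least 2-fold higher was 0, and became 4 at 1.5-fold and 29 scaled on the spike-ins. The median difference of 0.08 became 0 with no floor (39 genes), -0.048 with the higher floor, -0.057 without probe sets matching several transcripts or genes (21 genes), -0.025 scaled on ribosomal protein genes and 1.27 scaled on the spike-ins. A median this near 0 has no settled sign. Leaving the spike-in scale aside, HES4 ranged from 0.72 to 0.84, HES1 from 0.40 to 0.61, HES2 from -1.39 to -0.77 and PSEN2 from -0.86 to -0.40, while RBPJ ranged from 0.09 to 0.86 and MAML2 from -1.64 to -0.37. HES1, HES4 and PSEN2 have no value above the floor without probe sets matching several transcripts or genes, so their ranges leave that alternative out. PSEN2 was also not compared with the higher floor. MAML2 was not compared with the higher floor or with the mean of all probe sets. Its range leaves these alternatives out, and it could not count there as 2-fold lower. With 64 linear units added DLL4 went from 0.46 to 0.18 and NUMB from 0.75 to 0.23. APH1B reached -0.47 without probe sets matching several transcripts or genes, and HEYL turned to -0.12 as the mean of its probe sets. Signal near the floor limits HEY1, HEYL, NOTCH4, NUMB and MAML2.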
